A study of Homo sapiens with 12 samples.

Results

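CHAC1, NGFR, SLC44A2, POLR3F and PLCXD1 are 5 of the 37 genes whose RNA differed between BLU9931-treated and control H520 cells, out of 20612 genes tested and 58174 in the table. They were chosen by name, with that difference known, so the values of BLU9931 against control describe the choice and are given with no test. The question asked of them is whether the BLU9931 change recurs when palbociclib is present. That comparison, combination against palbociclib, is the tested one. Its 6 libraries have no part in the difference that chose the genes, but they entered the same fit and so the estimate of spread behind that choice. All 5 genes passed the filter on low counts, and each symbol has 1 row in the table.

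H520 is an established human cell line labelled as lung squamous carcinoma, and all groups are cultures of this 1 line. Poly(A) RNA was sequenced in 4 groups of 3 libraries: cells given the combination of BLU9931 at 1 µM and palbociclib at 1 µM, palbociclib alone at 1 µM, BLU9931 alone at 1 µM, and control cells, for 72 h. BLU9931 blocks FGFR4, a fibroblast growth factor receptor, and palbociclib blocks CDK4 and CDK6, kinases that drive entry into the cell cycle. What the control cells received is not stated in the labels. Whether replicate libraries stem from separate cultures is not stated either, and the p-values measure only the spread between these libraries, which may be technical.

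The 5 genes belong to unrelated systems. CHAC1 encodes an enzyme that breaks down glutathione and is a known target of the stress factor ATF4 and its partner CHOP. NGFR encodes p75, the low-affinity receptor shared by the neurotrophins. SLC44A2 encodes a choline transporter-like protein of the plasma and mitochondrial membranes. POLR3F encodes a subunit of RNA polymerase III, the enzyme that makes tRNA and 5S rRNA, and helps to recruit it to its promoters. PLCXD1 encodes a protein with a phospholipase C catalytic domain and lies in the pseudoautosomal region that the X and Y chromosomes share.

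Libraries held between 21730722 and 35786607 counts. Control 1 and palbociclib 3 stood apart: across genes, Spearman's rho between GC content and a gene's deviation from its group mean was -0.667 and -0.735 in them, against -0.245 to 0.6 in the others. Each member's tested value is therefore also given without both. Of 9 squamous and basal markers, SOX2 was abundant, at 424, 435, 417 and 361 TPM on average in combination, palbociclib, BLU9931 and control cells, but TP63, KRT14, DSG3 and PKP1 stayed below 1 TPM in all 12 libraries. Lung glandular markers summed to at most 13.6 TPM. Fibroblast markers summed to 5.30 to 5.52 TPM in BLU9931 libraries, against 1.97 to 4.69 TPM in control libraries, with 5 of 6 below 1 TPM in all 12. Of the leukocyte markers, 5 are given here. They summed to 4.26 to 4.58 TPM in combination libraries, against 2.46 to 3.27 TPM in palbociclib libraries, mostly LYZ at 3.35 and 2.01 TPM on average, with PTPRC, CD3E and ITGAM below 1 TPM in all 12. The part of the fibroblast and leukocyte markers in the results was not tested.

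SLC44A2 and NGFR were higher with BLU9931 also in the presence of palbociclib, and the differences of the other 3 genes did not pass the test there. In combination against palbociclib, 2 of the 5 genes were called by edgeR's quasi-likelihood test at an adjusted p under 0.05, both higher. Of all genes tested, 3.82% were called in this comparison, with 0.917% of all genes tested called higher and 2.91% lower. With a GC offset, which levels each library's relation to GC content, the 788 calls became 2519, and the split of 189 higher and 599 lower became 1282 and 1237. In BLU9931 against control, which chose the genes, 0.18% of all genes were called, 0.141% higher and 0.0388% lower, and nothing is read from the members' own calls there. Levels are given in CPM, read counts relative to TMM-scaled library size, unless TPM is named. Fold changes are log2 with the standard error (SE) of the fit, and in these bulk libraries fewer expressing cells and less RNA per cell cannot be told apart.

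**Figure D1:**
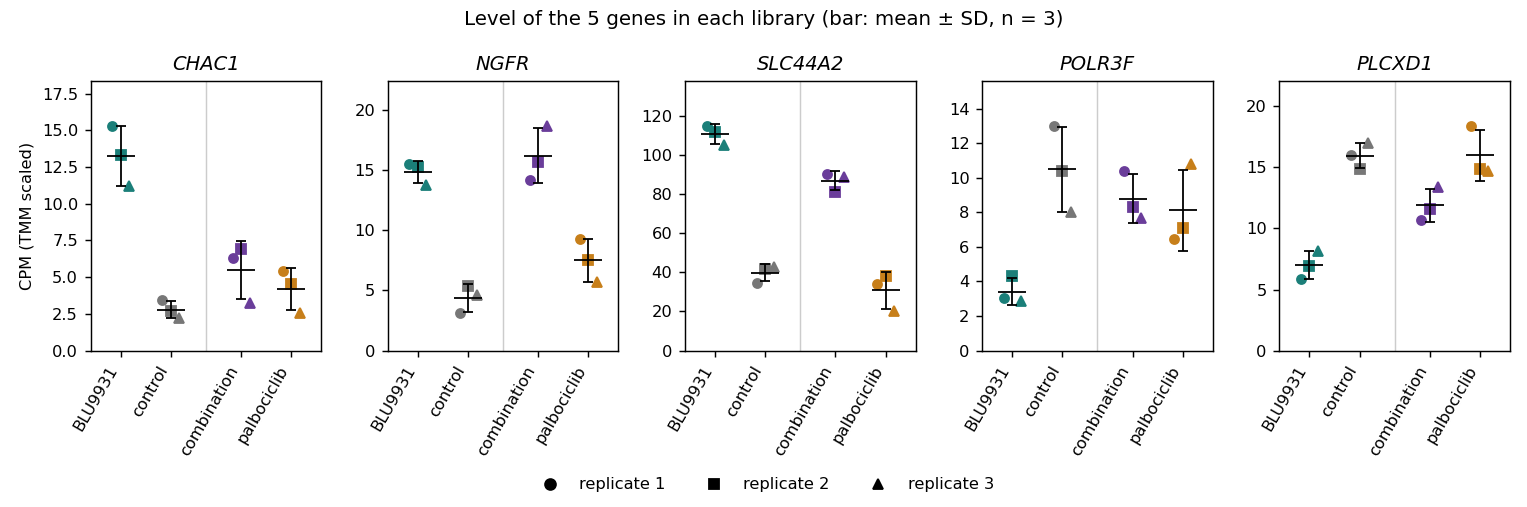
Level in CPM (y axis, starting at 0, own scale per gene) of each of the 5 genes in each of the 12 libraries, with a marker shape for each replicate number and bars for the mean ± SD of 3 libraries. SLC44A2 and NGFR are higher with BLU9931 on both sides of the grey line, while CHAC1 and POLR3F overlap right of it and PLCXD1 is at 10.7 to 13.4 CPM in combination and 14.7 to 18.4 CPM in palbociclib libraries.

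SLC44A2 (ENSG00000129353, GRCh38 chromosome 19, 10602457 to 10644559, plus strand) was the most abundant of the 5. It had 90.2, 81.3 and 89.1 CPM in combination cells, against 34.0, 38.4 and 20.0 CPM in palbociclib cells. Every combination library was above every palbociclib library, and palbociclib 3, one of the libraries that stood apart, was the lowest of all. Its level was thus 2.82-fold higher with BLU9931 on top of palbociclib (log2 change 1.49 ± 0.20, SE, 95% confidence interval 1.06 to 1.93, edgeR adjusted p = 0.00126). Without control 1 and palbociclib 3 the log2 change was 1.26 and still passed (edgeR adjusted p = 9.61e-06).

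Without palbociclib, SLC44A2 had 115, 112 and 105 CPM in BLU9931 cells, against 34.7, 42.0 and 42.9 CPM in control cells. This is a log2 change of 1.48 ± 0.20 (SE), by which the gene was chosen. Palbociclib alone against control gave -0.37 ± 0.20, a value that shares its control libraries with the choice and is not tested here. On the deposited TPM values, which are scaled by length, SLC44A2 averaged 63.9 ± 1.68 TPM in combination, 21.5 ± 6.16 in palbociclib, 75.4 ± 6.2 in BLU9931 and 27.8 ± 2.45 in control cells (SD, n = 3 each).

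NGFR (ENSG00000064300, GRCh38 chromosome 17, 49495293 to 49515017, plus strand) had 14.2, 15.7 and 18.7 CPM in combination cells, against 9.26, 7.55 and 5.70 CPM in palbociclib cells. The groups did not overlap, and the difference was 2.16-fold (log2 change 1.11 ± 0.22, SE, 95% confidence interval 0.63 to 1.59, edgeR adjusted p = 0.0154). The call rested on few libraries. It ended without palbociclib 2 (edgeR adjusted p = 0.0635), combination 2 (0.0575) or combination 3 (0.0738), and when only the palbociclib and combination libraries were fitted (0.0683). It held without control 1 and palbociclib 3 (log2 change 0.94, edgeR adjusted p = 0.00312).

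BLU9931 cells had 15.5, 15.3 and 13.8 CPM of NGFR, against 3.13, 5.36 and 4.64 CPM in control cells, a log2 change of 1.76 ± 0.22 (SE) that chose the gene. The 3 BLU9931 and 3 combination libraries overlapped, palbociclib libraries lay below both groups, and control libraries lay lowest, all of them under the lowest palbociclib library. The antisense gene AC006487.1 overlaps NGFR on the minus strand. It averaged 0.988 CPM over all libraries and its log2 change in combination against palbociclib was -0.38 ± 0.23 (edgeR adjusted p = 0.485). Whether counting used strand is not given in the sources used here.

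A list of 5 neuroendocrine markers moved with NGFR. Their summed level was 33.2 to 41.3 TPM in combination libraries, against 20.1 to 28.5 TPM in palbociclib libraries, and 25.1 to 28.5 TPM in BLU9931 libraries, against 16.9 to 20.8 TPM in control libraries. Most of that sum came from INSM1, a neuroendocrine transcription factor gene, at 25.1, 18.2, 22.2 and 14.8 TPM on average in combination, palbociclib, BLU9931 and control cells. CHGA and NEUROD1 were below 1 TPM in every library. The part of these markers in the NGFR result was not tested.

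CHAC1 (ENSG00000128965, GRCh38 chromosome 15, 40952962 to 40956519, plus strand) showed the widest BLU9931 difference of the 5 genes without palbociclib and a small one with it. It had 6.30, 6.93 and 3.27 CPM in combination cells, against 5.43, 4.52 and 2.59 CPM in palbociclib cells. The groups overlapped, and replicate 3 was the lowest library in both. The log2 change of CHAC1 was 0.39 ± 0.32 (SE, edgeR adjusted p = 0.638), with a 95% confidence interval from -0.30 to 1.08. It was 0.65 without combination 3, 0.62 without palbociclib 1, 0.18 without combination 2 and 0.14 without palbociclib 3, and did not pass in any of these fits. Without control 1 and palbociclib 3 it was 0.14 (edgeR adjusted p = 0.827).

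In BLU9931 cells CHAC1 had 15.3, 13.3 and 11.2 CPM, against 3.42, 2.70 and 2.24 CPM in control cells (log2 change 2.25 ± 0.33, SE, 4.76-fold in CPM). All 3 BLU9931 libraries also lay above all 3 combination libraries. The BLU9931 effect with palbociclib minus that without it was -1.87 on the log2 scale, a difference given with no test because it contains the value that chose the gene. Palbociclib against control, which shares its control libraries with that choice, gave 0.59 ± 0.32.

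ATF4 and C/EBP factors bind composite sites such as TGATGCAA, which reads TTGCATCA on the other strand. The 250 bases before the RefSeq start of CHAC1 hold this motif once. They are shown because CHAC1 had the widest change and is the member with the best known regulator. Capitals mark the motif (RefSeq, GRCh38.p14, chr15:40953221-40953470, plus strand, inside the longer gene span of the deposited table).
CHAC1 window: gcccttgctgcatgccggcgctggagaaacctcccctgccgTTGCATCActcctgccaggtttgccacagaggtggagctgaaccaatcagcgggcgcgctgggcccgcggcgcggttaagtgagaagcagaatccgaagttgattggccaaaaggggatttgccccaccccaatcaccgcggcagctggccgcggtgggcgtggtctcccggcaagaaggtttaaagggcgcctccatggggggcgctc

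The motif was searched as these 8 letters on both strands in windows from 250 bases before to 50 after each start. It was found in 302 of 34961 windows, or 0.864%. Of the 4 members with a window, CHAC1 alone held it, with its first base at -209 from the start. Of 18 genes of a list of ATF4 and unfolded protein response targets that have a window, 1 held it, HERPUD1, which encodes a membrane protein of the endoplasmic reticulum. The 24 bases around both matches compare as follows, with the motif in capitals.
CHAC1 site (chr15:40953254-40953277): ccctgccgTTGCATCActcctgcc
HERPUD1 site (chr16:56931958-56931981): gcggcgggTTGCATCAgcccgtgc

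HERPUD1, named here for its match after its values were seen, averaged 61.2 CPM in combination and 50.3 in palbociclib cells (log2 change 0.28 ± 0.13, SE, edgeR adjusted p = 0.345). It averaged 59.1 CPM in BLU9931 and 59.7 in control cells (-0.02 ± 0.13, edgeR adjusted p = 0.962). A match of letters shows neither binding nor a cause.

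POLR3F (ENSG00000132664, GRCh38 chromosome 20, 18467127 to 18484643, plus strand) was low in BLU9931 cells alone among the 4 groups. It had 10.4, 8.32 and 7.66 CPM in combination cells, against 6.44, 7.12 and 10.8 CPM in palbociclib cells. The groups overlapped, with a log2 change of 0.11 ± 0.25 (SE, 95% confidence interval -0.43 to 0.66, edgeR adjusted p = 0.894). It was 0.37 without control 1 and palbociclib 3 (edgeR adjusted p = 0.313), -0.02 without palbociclib 1 and -0.01 without combination 1. BLU9931 cells had 3.06, 4.31 and 2.86 CPM, against 13, 10.4 and 8.04 CPM in control cells, the log2 change of -1.61 ± 0.26 (SE) that chose the gene. The highest BLU9931 library was below the lowest library of each other group.

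PLCXD1 (ENSG00000182378, GRCh38 chromosome X, 276322 to 303356, plus strand, with a copy on Y) had 10.7, 11.6 and 13.4 CPM in combination cells, against 18.4, 14.9 and 14.7 CPM in palbociclib cells. In CPM the groups did not overlap, but in TPM they did (4.81 to 7.78 in combination, 6.82 to 11.6 in palbociclib libraries). The share of all genes without overlap was not counted. From counts, the log2 change of -0.42 ± 0.16 (SE, 95% confidence interval -0.77 to -0.07) had the sign seen without palbociclib. It did not pass the test (unadjusted p = 0.0214, edgeR adjusted p = 0.211). It was -0.48 without control 1 and palbociclib 3 (edgeR adjusted p = 0.0939). BLU9931 cells had 5.86, 6.92 and 8.19 CPM, against 16, 14.9 and 17 CPM in control cells, the log2 change of -1.19 ± 0.16 that chose the gene. The ratio of group means was 0.746 with palbociclib and 0.437 without it in CPM, but 0.669 and 0.855 in TPM.

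**Figure D2:**
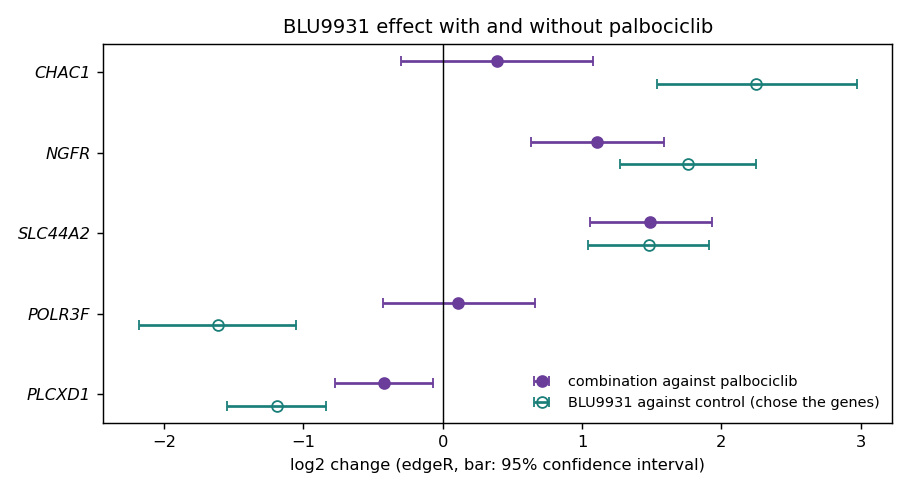
Log2 change (x axis) with its 95% confidence interval for each gene (y axis), filled for combination against palbociclib and open for BLU9931 against control, which chose the genes. The filled intervals of SLC44A2 (1.06 to 1.93) and NGFR (0.63 to 1.59) lie above 0, and those of CHAC1 (-0.30 to 1.08) and POLR3F (-0.43 to 0.66) span it. That of PLCXD1 (-0.77 to -0.07) lies below 0, though its edgeR adjusted p of 0.211 did not pass.

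The falls of PLCXD1 and POLR3F under BLU9931 differed between the deposited counts and the deposited length-scaled values. PLCXD1 averaged 8.02 ± 1.75 TPM in BLU9931 cells and 9.38 ± 0.862 TPM in control cells (SD, n = 3 each), with overlapping groups, although its CPM was 0.437 of the control level. On log2(TPM + 1) its change was -0.22. POLR3F averaged 4.59 ± 0.759 TPM in BLU9931 cells and 9.03 ± 1.56 TPM in control cells without overlap, a change of -0.84 on that scale, against -1.61 from counts. The 3 rising genes moved little between the scales: SLC44A2 changed by 1.41, NGFR by 1.49 and CHAC1 by 2.0 on log2(TPM + 1).

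A count divided by its FPKM value, after scaling to library size, gives the length, in kilobases (kb), that the authors' FPKM implies. For PLCXD1 it was 1.93, 2.19 and 1.88 kb in BLU9931 libraries, against 3.84, 3.86 and 3.77 kb in control libraries. For POLR3F it was 1.73, 1.79 and 1.52 kb in BLU9931 libraries, against 2.71, 2.60 and 2.44 kb in control libraries. Neither gene's groups overlapped. Of 12580 genes that had 50 or more counts in all libraries, 7, or 0.0556%, shifted as far as PLCXD1 between these groups (-0.94 on the log2 scale) and 43, or 0.342%, as far as POLR3F (-0.62). The BLU9931 and control counts that chose both genes enter this length, and a low BLU9931 count shortens it. The shift, the lack of overlap and these shares are therefore a description, with no support drawn from them.

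With palbociclib in both groups, the implied length was 5.12, 4.34 and 4.02 kb for PLCXD1 in combination libraries, against 3.66, 3.65 and 4.88 kb in palbociclib libraries. It averaged 2.20 ± 0.0737 kb for POLR3F in combination libraries and 2.23 ± 0.357 kb in palbociclib libraries (SD, n = 3 each). Both pairs of groups overlapped. GENCODE 29 lists PLCXD1 transcripts from 284 to 5507 bases, among them coding ones of 1863 and 5287 bases, and POLR3F transcripts from 426 to 2416 bases. Use of single transcripts is not resolved in the deposited table. POLR3F also overlaps DZANK1 on the minus strand, a gene at 2.41 CPM on average with a log2 change of 0.29 ± 0.24 in BLU9931 against control (edgeR adjusted p = 0.536).

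**Figure D3:**
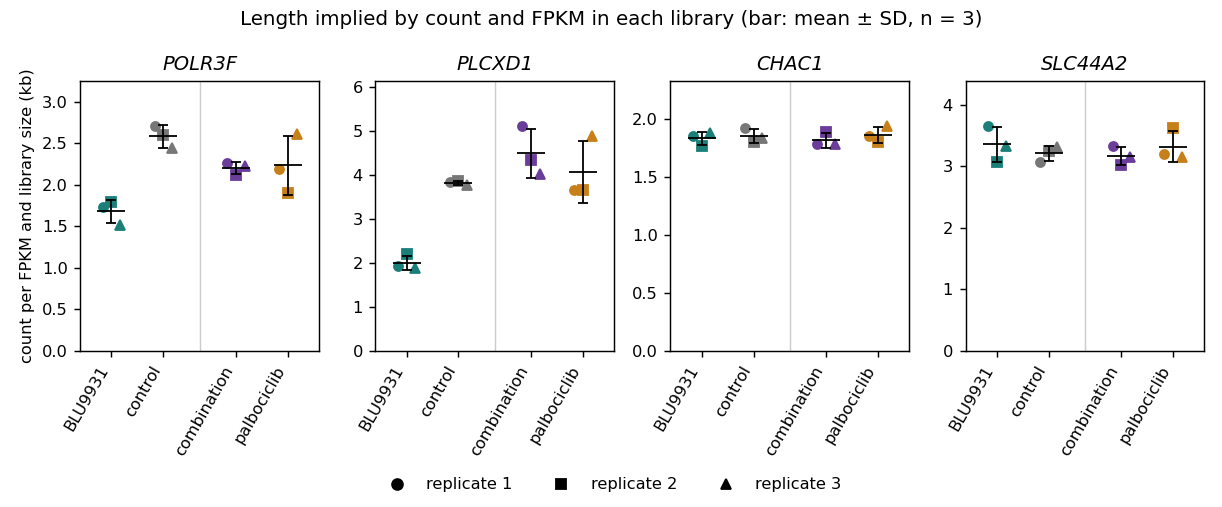
Length in kb (y axis, starting at 0, own scale per gene) implied by the deposited count and FPKM value in each of the 12 libraries, with bars for the mean ± SD of 3 libraries. For PLCXD1 the BLU9931 libraries sit between 1.88 and 2.19 kb, below the control libraries at 3.77 to 3.86 kb, while CHAC1 stays between 1.77 and 1.94 kb in all groups.

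Per unit of length, the order of the 5 genes differed between groups. In BLU9931 cells it was SLC44A2 at 75.4, CHAC1 at 16.5, NGFR at 8.22, PLCXD1 at 8.02 and POLR3F at 4.59 TPM. In control cells it was SLC44A2 at 27.8, PLCXD1 at 9.38, POLR3F at 9.03, CHAC1 at 3.36 and NGFR at 2.32 TPM. NGFR and PLCXD1 in BLU9931 cells, and PLCXD1 and POLR3F in control cells, differed by less than the spread between libraries. In combination cells POLR3F at 9.27, NGFR at 8.93, CHAC1 at 7.03 and PLCXD1 at 6.30 TPM followed SLC44A2 at 63.9 TPM. In palbociclib cells the order was SLC44A2 at 21.5, PLCXD1 at 9.42, POLR3F at 8.40, CHAC1 at 5.29 and NGFR at 4.16 TPM. Neighbours below SLC44A2 in combination cells, and PLCXD1 and POLR3F or CHAC1 and NGFR in palbociclib cells, also differed by less than that spread.

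All 37 genes called in BLU9931 against control were then followed into combination against palbociclib. Of these, 18 were called there, which is 48.6% of the 37 and 2.28% of the 788 genes called in that comparison, where 3.82% of all genes were called. The sign was kept in 14 of the 18, all of them rises. Both comparisons use the same estimate of each gene's spread, so a gene with little spread is more easily called in both. Of 29 rises, 23 had a positive log2 change with palbociclib, with a median of 0.51. Of 8 falls, 5 had a negative one, with a median of -0.05, and 0 were called lower by edgeR. DESeq2 and limma on log2(TPM + 1) also called 0 of the 8 lower, and each of the 3 tools had 1 of them lower at an unadjusted p under 0.05. The median over all genes was 0.

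The list of 37 itself depended on the libraries. Without control 1 and palbociclib 3, 553 genes were called in BLU9931 against control, and 147 of these, or 26.6%, were called in combination against palbociclib, where 9.69% of all genes then were. Only 75 of the 147 kept their sign.

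Among the protein-coding non-members of the 37, the smallest adjusted p with palbociclib was that of F13A1, the coagulation factor XIII A chain gene, whose values went the other way. It averaged 46.5 ± 1.27 CPM in combination and 129 ± 11.1 CPM in palbociclib cells, but 53.3 ± 0.934 CPM in BLU9931 and 35.3 ± 1.37 CPM in control cells (SD, n = 3 each). DUSP15, a dual-specificity phosphatase gene, averaged 5.58 ± 0.609 CPM in combination and 0.162 ± 0.0778 CPM in palbociclib cells (SD, n = 3 each, edgeR adjusted p = 0.000115). It averaged 2.31 CPM in BLU9931 and 0.122 CPM in control cells, so low in palbociclib and control cells that its fold is poorly bounded. FGFBP1, which encodes a carrier of fibroblast growth factors, had a log2 change of 1.28 ± 0.13 (edgeR adjusted p = 0.000126) in combination against palbociclib and 1.46 ± 0.12 in BLU9931 against control.

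PRELP, a matrix proteoglycan gene, had 1.67 ± 0.17 with palbociclib and 1.67 ± 0.18 without it. CRYAB, which encodes a small heat shock protein, had 1.52 ± 0.20 and 1.31 ± 0.21, and TIMP3, an inhibitor of matrix metalloproteinases, 0.98 ± 0.14 and 0.88 ± 0.14, in the same order. The edgeR adjusted p with palbociclib was 0.000197 for PRELP, 0.00134 for CRYAB and 0.00256 for TIMP3. TIMP3 missed the threshold when only the palbociclib and combination libraries were fitted (edgeR adjusted p = 0.0543). At the threshold that set the 37 genes, POLR3F (log2 change -1.61 in BLU9931 against control) was the member just inside, and PTPRZ1 (-0.49), IL1R2 (1.18) and MAFF (1.03) were the protein-coding genes just outside.

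**Figure D4:**
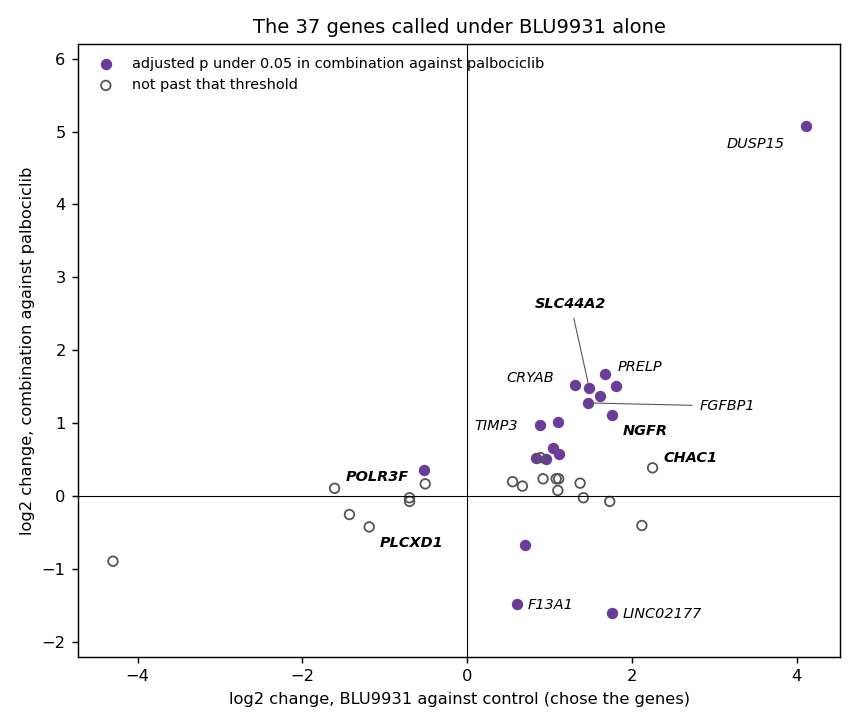
Log2 change in combination against palbociclib (y axis) over log2 change in BLU9931 against control (x axis, which chose the genes) for 37 genes, filled where combination against palbociclib called the gene and with the 5 genes of interest in bold. SLC44A2 (1.49) and NGFR (1.11) are filled among the rises, CHAC1 (0.39) is open, and F13A1 (-1.47) and LINC02177 (-1.60) lie below 0.

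Genes whose level ran most like each member's were ranked by Pearson's r of log2 CPM over the 12 libraries among protein-coding genes with at least 5 CPM on average. Libraries of a group share their treatment, so r is a description. FGFBP1 (0.94), MDK (0.927), which encodes the growth factor midkine, and TRIM29 (0.924) ran most like SLC44A2. INSM1 (0.957), the cation channel gene TRPM4 (0.956) and TSPAN15 (0.925) ran most like NGFR. In combination against palbociclib TRPM4 rose by 1.15 ± 0.24 and MDK by 1.02 ± 0.19 (log2, SE, edgeR adjusted p = 0.0207 and 0.00959), while INSM1 at 0.47 ± 0.14 did not pass (0.105).

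NRP2 (0.889), a semaphorin co-receptor gene, with ZBTB3 (0.869) and LZTS3 (0.855), ran most like CHAC1. KLF10 (0.958), ABCC4 (0.945) and SLC8A1 (0.935) ran most like POLR3F, and GLA (0.944), ALG8 (0.894) and PTGFRN (0.894) most like PLCXD1. None of these 9 genes was called in combination against palbociclib, with edgeR adjusted p from 0.287 for NRP2 to 0.991 for ZBTB3. Between the members, r was 0.819 for NGFR and SLC44A2, 0.764 for CHAC1 and SLC44A2 and 0.761 for PLCXD1 and POLR3F, and it was negative between each rising and each falling member, from -0.884 for CHAC1 and PLCXD1 to -0.593 for NGFR and POLR3F.

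The genes named next lie beside the members on the chromosome, and edgeR called none of them in either comparison. Next to CHAC1 lie the Notch ligand gene DLL4 and INO80, next to SLC44A2 the adaptor subunit gene AP1M2, next to POLR3F ZNF133 and RBBP9, next to PLCXD1 GTPBP6, and next to NGFR EIF4EP2 and AC006487.2. Among these, AP1M2 had the smallest edgeR adjusted p in combination against palbociclib, at 0.255 (log2 change 0.43 ± 0.18).

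The systems the 5 genes belong to were described from lists of other genes, members left out. Of 115 genes tested on 6 lists, 2 were called in combination against palbociclib, or 1.74%, against 3.82% of all genes, and 0 in BLU9931 against control, against 0.18% of all genes. At an unadjusted p under 0.05 edgeR had 15 and 23 of the 115 in these comparisons. Of all 20612 genes tested, 3200 and 3347 had such a p, in the same order. DESeq2, fitted on the whole table of 58174 genes with its own filter, called 1318 (401 higher, 917 lower) and 614 (281 and 333). Of the 20612 genes, limma on log2(TPM + 1) called 662 (159 and 503) and 47 (38 and 9). The edgeR fit with the GC offset called 2519 (1282 and 1237) and 777 (317 and 460) of them. The unadjusted counts over all genes were not split by direction. The counts for each list below are to be read beside these.

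Of 20 ATF4 and unfolded protein response genes, 0 were called in combination against palbociclib (median log2 change 0.15, edgeR, 1 at unadjusted p under 0.05, 0 by DESeq2 and 0 by limma on TPM). In BLU9931 against control 0 were called (median -0.01, edgeR), with 7 at unadjusted p under 0.05, 3 higher and 4 lower, and 1 lower by DESeq2 and 0 by limma on TPM. The list ran from -0.68 to 0.87. The 3 higher ones were SESN2, which encodes a stress-induced regulator of mTORC1, CEBPB and DDIT4, and the 4 lower ones HSPA5, the gene of the chaperone BiP, DNAJB9, SLC7A11 and PSAT1. SESN2 averaged 17.8 ± 3.42 CPM in BLU9931 and 9.86 ± 2.10 CPM in control cells (SD, n = 3 each, log2 change 0.85 ± 0.27, edgeR adjusted p = 0.199). HSPA5 averaged 656 ± 33.9 CPM in BLU9931 and 858 ± 55.3 CPM in control cells (SD, n = 3 each, log2 change -0.39 ± 0.09, edgeR adjusted p = 0.127). ATF4 itself averaged 341 CPM in BLU9931 and 311 CPM in control cells. DDIT3, which encodes CHOP, averaged 9.24 and 9.34 CPM, and TRIB3, another target of this pathway, 11.6 and 10.1 CPM, in the same order. ATF4, DDIT3 and TRIB3 were picked for their role, and the 7 genes before them for their unadjusted p, after their values were seen.

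Of 12 tested genes of glutathione synthesis and breakdown, 0 were called in either comparison by edgeR (medians 0.14 with palbociclib and -0.08 without). At an unadjusted p under 0.05 there were 2 with palbociclib and 5 without, DESeq2 called 0 and 1, and limma on TPM 0 and 0. CHAC2, the paralog of CHAC1, averaged 6.64 ± 0.686 CPM in combination and 8.22 ± 2.28 CPM in palbociclib cells (SD, n = 3 each, edgeR adjusted p = 0.529). It averaged 11.3 ± 1.01 CPM in BLU9931 and 17.7 ± 2.86 CPM in control cells (edgeR adjusted p = 0.194), the opposite sign to CHAC1.

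Of 16 tested genes for neurotrophins, their receptors and p75 adaptors, 1 rose and 0 fell in combination against palbociclib (median 0.15, edgeR). At an unadjusted p under 0.05 there were 6, all higher, and DESeq2 called 4 higher, the GC offset 6 higher and 1 lower, and limma on TPM 0. Over all genes DESeq2 called 401 higher and 917 lower, and the GC offset 1282 higher and 1237 lower. The edgeR call was NTRK3, the receptor of neurotrophin-3, at 3.22 ± 0.370 CPM in combination and 1.00 ± 0.434 CPM in palbociclib cells (SD, n = 3 each, log2 change 1.67 ± 0.29, edgeR adjusted p = 0.00673). This call ended when only the palbociclib and combination libraries were fitted (edgeR adjusted p = 0.0738) and on log2(TPM + 1) (limma adjusted p = 0.104). It held without control 1 and palbociclib 3 (1.37, edgeR adjusted p = 0.003). In BLU9931 against control 0 of the 16 were called (median 0.16, edgeR), with 1 at unadjusted p under 0.05, 1 by DESeq2 and 0 by limma on TPM.

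Of 19 tested genes of choline transport and phosphatidylcholine synthesis, 0 rose and 1 fell in combination against palbociclib (median -0.11, edgeR). At an unadjusted p under 0.05 there were 1 higher and 1 lower, DESeq2 called 1 higher and 1 lower, and limma on TPM 1 lower. The edgeR call was SLC44A3, a relative of SLC44A2, at 5.63 ± 0.566 CPM in combination and 8.07 ± 0.567 CPM in palbociclib cells (SD, n = 3 each, log2 change -0.52 ± 0.13, edgeR adjusted p = 0.0449). Leaving out any 1 library other than control 1 ended the call, with edgeR adjusted p up to 0.172, while without both control 1 and palbociclib 3 it held (-0.49, edgeR adjusted p = 0.0341). SLC44A1, the best studied choline transporter of the family, averaged 71.5 ± 5.20 CPM in combination and 88.9 ± 22.2 CPM in palbociclib cells (edgeR adjusted p = 0.552). In BLU9931 against control 0 of the 19 were called (median -0.08, edgeR), with 3 at unadjusted p under 0.05, 1 by DESeq2 and 0 by limma on TPM.

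Of 34 RNA polymerase III subunits and initiation factors, 0 were called in combination against palbociclib (median 0.08, edgeR, 4 at unadjusted p under 0.05, 1 by DESeq2 and 0 by limma on TPM). In BLU9931 against control 0 were called (median -0.04, edgeR). There 7 had an unadjusted p under 0.05, all of them lower, where 3347 of all 20612 genes had such a p in either direction. DESeq2 called 4 lower, among 333 genes that it called lower in all, and limma on TPM 1, among 9. Of 14 tested phospholipase C genes, 0 were called in either comparison by edgeR (medians 0 and 0.11), by DESeq2 or by limma on TPM, and 0 had an unadjusted p under 0.05. Among them PLCXD2, a relative of PLCXD1, averaged 59.9 CPM in combination, 59.4 in palbociclib, 19.5 in BLU9931 and 18.3 CPM in control cells.

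**Figure D5:**
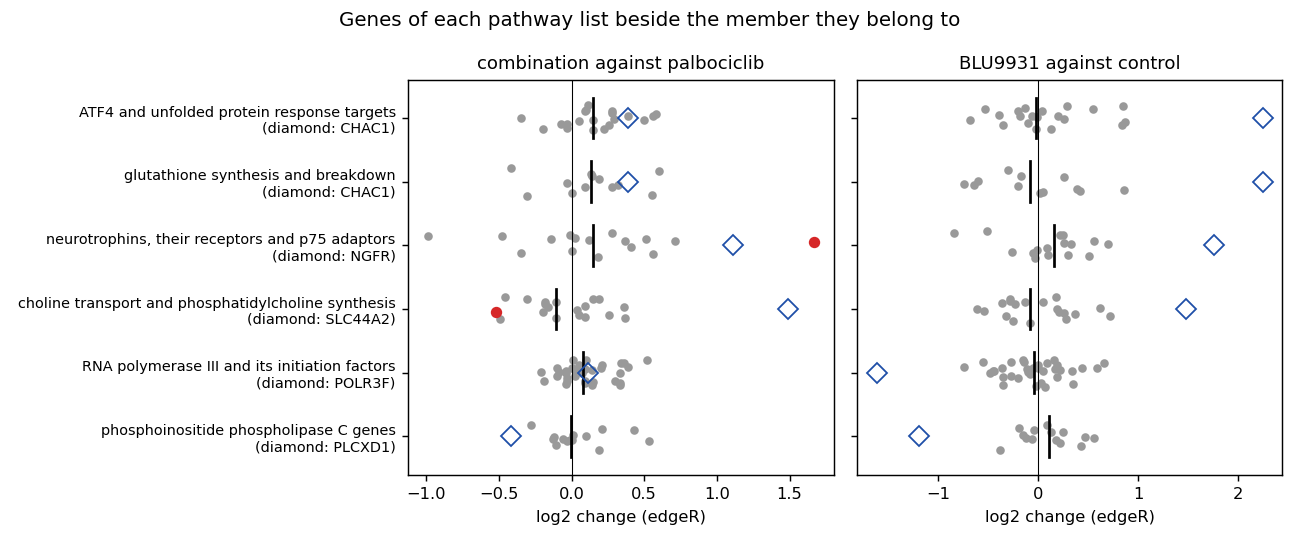
Log2 change (x axis) of each tested gene of 6 lists (y axis) in combination against palbociclib (left) and BLU9931 against control (right), with a black line at the list's median, red points for called genes and a diamond for the member the list goes with. On the right every diamond lies outside the range of its list, by choice of the members, and on the left the 2 red points are NTRK3 (1.67) and SLC44A3 (-0.52).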

How the data were processed

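Poly(A) RNA was measured in 12 libraries. For each gene, the deposited table holds counts, TPM and FPKM of every library, named so per the file headers. Deposited counts are whole numbers with no normalization. TPM and FPKM were scaled by the authors for length and depth. A mouse build, StringTie 1.3.3b, HISAT2 2.0 and Trimmomatic 0.36 are named, without roles, per the submitters' processing notes. Counting mode and use of strand are not given in the sources used here. Of 58174 human IDs, 57836 were found in GENCODE 29, 56044 of them at identical coordinates, and positions are therefore given in GRCh38.

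Counts were filtered by filterByExpr (20612 genes kept), scaled by TMM and fitted in edgeR 4.0.16 (R 4.3.3) with glmQLFit (robust, 8 residual degrees of freedom) over all 12 libraries with a term per group. The two-sided quasi-likelihood test was adjusted by Benjamini-Hochberg over all genes (threshold 0.05). SE is the log2 change over the root of F. Alternatives were library totals, size factors of DESeq2 1.42.0, its Wald test, no filter, fits of the compared groups alone, each library left out, control 1 and palbociclib 3 left out, a replicate block, a GC offset per library (99.6% of genes had a GC value), and limma 3.58.1 on log2(TPM + 1), log2(TPM + 0.1) and log2(FPKM + 1). Fits were tested on simulated counts. Replicates of a group differed by 16.6 to 81.7 times counting noise (chi-square per degree of freedom).

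The members and lists were chosen with earlier results of these data known. Of 163 list symbols 162 matched. Most genes were named by a rule: the members, the 3 genes most like each, their neighbours and overlapping genes, paralogs, up to 3 called genes per list and comparison, and the 6 other called protein-coding genes with the smallest adjusted p with palbociclib. Outside the rule are the cell type markers, HERPUD1, the genes named from the ATF4 list, those just outside the threshold, and those flagged for a closer look. Apart from the markers, these were picked by their values, role or motif match. Tables and plots used Python 3.11.15, pandas 2.3.3 and matplotlib 3.10.9. A marker gene and a neighbouring gene are not reported here.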

Additional observations from a re-analysis of the deposited data

Results flagged for a closer look

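The interaction term of the edgeR fit, the BLU9931 effect with palbociclib minus that without it, called 1 of the 115 list genes. It called 1.59% of all genes, a larger share, so nothing is read from the count. TNFRSF19, a receptor gene of the p75 list, averaged 163 ± 12.5 CPM in combination and 125 ± 19.2 CPM in palbociclib cells, but 57.2 ± 2.54 CPM in BLU9931 and 81.4 ± 3.04 CPM in control cells (SD, n = 3 each). The effects differed by 0.88 on the log2 scale (edgeR adjusted p = 0.0228).

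Of the 37 genes called under BLU9931 alone, 5 moved in opposite directions with and without palbociclib with no overlap between the libraries in either comparison. These differences were not tested, because the genes were chosen by the change without palbociclib. That choice also favours genes whose libraries do not overlap there. The share of all genes with such a pattern was not counted, so nothing is read from the number. F13A1 was at 45.2 to 47.8 CPM in combination libraries, 121 to 142 in palbociclib, 52.2 to 54.0 in BLU9931 and 34.4 to 36.9 CPM in control libraries, a difference of -2.07 between the log2 effects. The difference was -3.36 for LINC02177, -1.37 for AC104958.2, 0.90 for ODC1, which encodes the enzyme that starts polyamine synthesis, and 0.68 for LRRC59. ODC1 was at 171 to 185 CPM in combination libraries, 130 to 144 in palbociclib, 217 to 243 in BLU9931 and 323 to 363 CPM in control libraries.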

How the results depend on the processing

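SLC44A2 passed the test in combination against palbociclib under every alternative run, with log2 changes from 1.26 to 1.69. NGFR did not pass when only the 2 groups compared were fitted (1.10) or with a replicate block (1.11, edgeR adjusted p = 0.05, just above the threshold), and leaving out 1 library gave 0.94 to 1.29. The members called were then 1 with only the 2 groups compared, 1 with the block, and 1 to 2 with 1 library left out. POLR3F ran from -0.02 to 0.37 with 1 library left out, its sign turning without palbociclib 1 or combination 1. PLCXD1 in combination against BLU9931 was 0.77 from counts but -0.31 on log2(TPM + 1), -0.35 on log2(TPM + 0.1) and -0.27 on log2(FPKM + 1). The cause was not tested.

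Counts of called genes moved more. Combination against palbociclib had 788, against 1318 by DESeq2's Wald test, 297 with only the 2 groups compared, 438 to 945 with 1 library left out, 2043 without control 1 and palbociclib 3, 483 with the replicate block, 2519 with the GC offset and 1996 with both block and offset. With the GC offset 1282 rose and 1237 fell, against 189 and 599. BLU9931 against control had 37, against 614 by DESeq2, 17 with no filter, 6 with only the 2 groups compared, 1 to 396 with 1 library left out, 553 without control 1 and palbociclib 3, 2 with the block, 777 with the offset, 356 with both, 17 on log2(TPM + 0.1) and 81 on log2(FPKM + 1). Of these, 281 rose and 333 fell by DESeq2, 317 and 460 with the offset, and 293 and 260 without both libraries, against 29 and 8.

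Genes called in both comparisons numbered 18, against 123 by DESeq2, 7 with no filter, 2 with only the 2 groups compared, 1 to 59 with 1 library left out, 147 without control 1 and palbociclib 3, 1 with the block, 234 with the offset, 106 with both and 7 on log2(TPM + 0.1). List genes called in combination against palbociclib numbered 2, against 7 by DESeq2, 1 with no filter, 0 with only the 2 groups compared, 1 to 6 with 1 library left out, 11 without control 1 and palbociclib 3, 1 with the block, 16 with the offset, 14 with both, 1 on log2(TPM + 1) and 0 on log2(TPM + 0.1). In BLU9931 against control they numbered 0, against 8 by DESeq2, 0 to 8 with 1 library left out, 8 without control 1 and palbociclib 3, 9 with the offset, 4 with block and offset, 1 on log2(TPM + 1) and 1 on log2(FPKM + 1).

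No pairing of the libraries by replicate number was seen. Over 18 pairs of same-numbered libraries, deviations from the group mean correlated at -0.364 to 0.168, with 3 pairs over 0.1. For pairs with other numbers the range was -0.277 to 0.464. The highest value was that of control 1 with palbociclib 3, which stood apart by GC content. Such deviations can hide a shared culture, so these values cannot exclude pairing.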
